A study of Mus musculus with 10 samples.

Results

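The stretch of mouse chromosome 11 described here runs from 110.3 to 113.7 Mb (mm10) and holds Sox9 and 4 neighbours, Map2k6, Kcnj16, Kcnj2 and Slc39a11. Its 5 member genes and the interval were chosen by the positions of the summits of the transcription factor HEB in both deposited lists, with earlier results of these data known. The members are therefore described and not tested. Every summit of the interval was taken: 47 of the 1489 in the list made after Id4 knockdown (siID4) and 7 of the 560 in the list made with non-targeting siRNA (siNT).

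HEB chromatin immunoprecipitation with sequencing was done on Comma-Dβ, a line of mammary epithelial cells from the mouse that was used at passage 28. The labels list 3 HEB libraries from cells given 20 nM of a non-targeting siRNA pool, 3 from cells given 20 nM of an siRNA pool against Id4, both harvested 48 h after transfection, and 4 input libraries without antibody or siRNA for both arms. The authors deposited 1 list of summits per siRNA, each summit being 1 bp wide with a score, read here as the −log10 of a q value. Values per library, input coverage and read depths were not used here, so no value below has an error between replicates, and the lists hold no expression values with which the knockdown or the levels of Sox9 could be checked. Scores depend on the depth of their own list and were ranked only within it. Intervals are exact 95% intervals that cover counting error only.

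HEB, encoded by Tcf12, is a helix-loop-helix factor of the E-protein class that binds E-boxes, the 6-base sites CANNTG, as a dimer. ID4 is a helix-loop-helix protein that lacks a DNA-binding domain and can pair with such factors. Sox9 is an HMG-box transcription factor of cartilage, testis and many epithelial progenitors, and in the mammary gland it marks stem and luminal progenitor states. It lies in a gene desert, a long stretch poor in protein-coding genes, through which enhancers that act on Sox9 over long distances are spread. Kcnj2 and Kcnj16 encode the inward rectifier potassium channel subunits Kir2.1 and Kir5.1, Map2k6 encodes a kinase that activates p38 MAP kinases, and Slc39a11 encodes a zinc transporter of the ZIP family.

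Sequence under the summits was not analysed here. RefSeq promoter sequences (GRCm38.p6) matched 4 of the 5 members, with 10 starts in all; Sox9 did not match. No summit of either list lay within 1 kb of any of the 38 gene starts that the promoter table places in the interval. The share of all listed summits within 1 kb of a start is not given here, so nothing is read from this count. The nearest siID4 summit was 3324 bp from a start, that of the lncRNA gene Gm51927 inside Slc39a11, and the nearest siNT summit 5372 bp from a start, that of LOC115487747. The 250 bases before 3 starts are shown to set the letters of the E-box beside these distances. They come from Kcnj2 (chr11:111065914-111066163, plus strand), whose start was 192 kb from the nearest siID4 and 298 kb from the nearest siNT summit, and from both starts of Slc39a11. The inner Slc39a11 start (chr11:113565816-113566065, minus strand) was 9.60 kb from an siID4 and 66.2 kb from an siNT summit. The outer start (chr11:113650093-113650342, minus strand) was 3.83 kb and 18.1 kb away. Sequences run 5′ to 3′ on the gene's strand, and capitals mark CANNTG, a pattern that reads the same on both strands.
Kcnj2: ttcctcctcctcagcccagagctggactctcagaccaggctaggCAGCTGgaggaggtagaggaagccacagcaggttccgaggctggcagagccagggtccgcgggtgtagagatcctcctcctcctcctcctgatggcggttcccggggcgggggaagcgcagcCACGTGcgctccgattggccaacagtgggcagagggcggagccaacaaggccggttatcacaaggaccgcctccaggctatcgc
Slc39a11, inner start: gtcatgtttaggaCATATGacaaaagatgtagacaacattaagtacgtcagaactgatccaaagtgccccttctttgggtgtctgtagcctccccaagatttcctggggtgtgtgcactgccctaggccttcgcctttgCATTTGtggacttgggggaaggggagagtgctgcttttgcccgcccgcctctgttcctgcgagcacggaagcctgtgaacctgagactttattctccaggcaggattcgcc
Slc39a11, outer start: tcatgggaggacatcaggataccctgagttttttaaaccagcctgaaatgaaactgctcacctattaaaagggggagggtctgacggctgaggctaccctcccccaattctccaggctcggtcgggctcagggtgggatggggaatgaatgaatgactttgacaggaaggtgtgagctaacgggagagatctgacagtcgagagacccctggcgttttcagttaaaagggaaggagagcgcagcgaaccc

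The Kcnj2 sequence held 2 E-boxes, CAGCTG and CACGTG, the inner Slc39a11 sequence held CATATG and CATTTG, and the outer one held no CANNTG. Over the 10 starts of the 4 members, several of which belong to the same gene, 5 held a CANNTG and 3 a CAGCTG, which is a special case of it. Of 32851 promoter sequences of the same length in the table, 66.2% held CANNTG and 13.0% CAGCTG. These are letter matches in the promoter windows, where no summit lay.

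Summits of the siID4 list were spread over most of the interval, while the 7 siNT summits lay either before Kcnj16 or between Sox9 and the end of Slc39a11. In the siID4 list 9 summits lay on the Map2k6 side of the potassium channel genes, 21 between Kcnj2 and Sox9, 6 between Sox9 and Slc39a11, 8 inside Slc39a11 and 3 beyond it. In the siNT list 3 lay on the Map2k6 side, 2 between Sox9 and Slc39a11 and 2 inside Slc39a11. The interval held 3.16% of the siID4 list (2.33 to 4.18%) and 1.25% of the siNT list (0.504 to 2.56%).

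**Figure D1:**
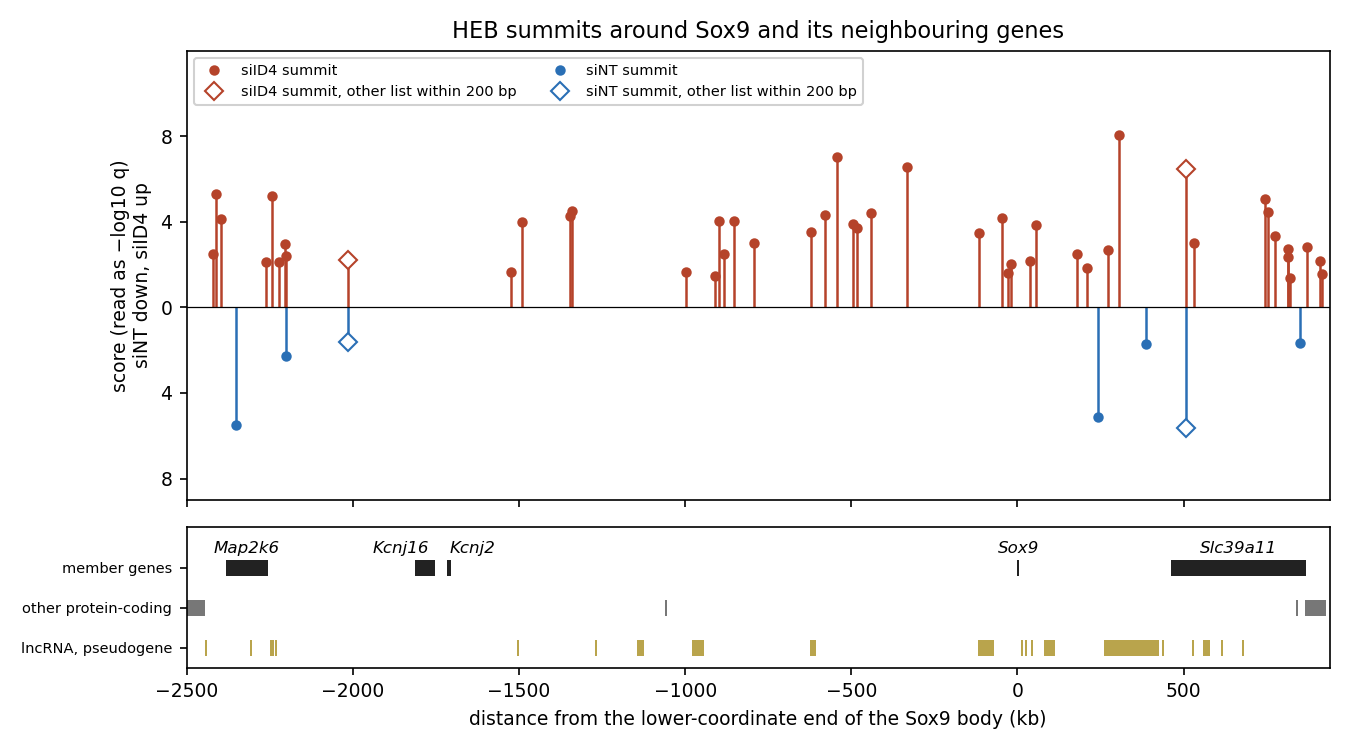
Summits of the Sox9 interval by distance from the lower-coordinate end of the Sox9 gene body (x axis, kb) and score (y axis, read as −log10 q), siID4 upward and siNT downward, with open diamonds for the 2 pairs that lie within 200 bp of each other, above the bodies of the member genes, other protein-coding genes, and lncRNA genes and pseudogenes. The 21 siID4 summits between Kcnj2 and Sox9 have no siNT summit below them.

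Sox9 (gene ID 20682, chromosome 11, 112782210 to 112787757) held no summit of either list in its body of 5.55 kb. Within 100 kb of the body the siID4 list had 5 summits and the siNT list had 0. On the Kcnj2 side siID4 summits lay 18.5 kb from the body (position 112763676, score 2.05, rank 1292 of 1489), 26.9 kb (112755278, score 1.61, rank 1403) and 45.8 kb (112736433, score 4.16, rank 769). On the Slc39a11 side they lay 32.9 kb (112820634, score 2.17, rank 1242) and 50.4 kb away (112838118, score 3.87, rank 834). All 5 scored below the siID4 list's median of 4.31. The nearest siNT summit was 236 kb from Sox9, on the Slc39a11 side, at position 113023669 (score 5.11, rank 332 of 560). Within 500 kb the counts were 14 siID4 and 2 siNT summits, and within 1 Mb, which on the Slc39a11 side reaches past 113.7 Mb, they were 37 and 5. Of the siID4 summits within 1 Mb, 17 lay on the Kcnj2 side and 20 on the Slc39a11 side, 17 of the latter inside the interval. The 5 siNT summits were all on the Slc39a11 side, 4 of them inside the interval.

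The desert between Kcnj2 and Sox9 was the longest stretch between member genes, at 1.71 Mb, and carried 21 siID4 summits with scores from 1.48 to 7.05 (median 3.89). No siNT summit fell in it. A count of 0 allows up to 3 summits, or 0.536% of the siNT list, and the lists are of unequal length and unknown depth. The highest-scoring summit of the desert lay 542 kb from Sox9 at position 112239798 (score 7.05, rank 429), 82434 bp from the nearest start in the promoter table, that of the lncRNA gene Gm39461. The next lay 332 kb from Sox9 at 112450483 (score 6.58, rank 469). These were the 2 summits of this desert above a score of 5. When the siID4 list was cut to its 560 highest scores, the length of the siNT list, only these 2 remained, beside 0 siNT summits. That cut was chosen after the data were seen.

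The desert's other summits formed loose groups, described here by position alone. Furthest from Sox9, summits at 111258531 (score 1.66), 111292264 (4.01), 111435196 (4.27) and 111442953 (4.50) lay 1.34 to 1.52 Mb away. After a stretch without summits, 6 lay between 794 and 998 kb from Sox9, from position 111784696 to 111988212, with scores of 1.48 to 4.04. Another 6 lay between 441 and 621 kb away, from 112161349 to 112341231, and this group holds the summit with a score of 7.05. Its lowest score was 3.52, at 112161349 inside Gm39461. One further summit lay inside the lncRNA gene BC006965, 114 kb from Sox9 (112667937, score 3.47). The desert contains 1 predicted protein-coding gene, Gm11677, which held no summit.

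Between Sox9 and Slc39a11, a stretch of 457 kb, the siID4 list had 6 summits and the siNT list 2. Beyond the pair near Sox9 already described, siID4 summits lay 175 kb (112962290, score 2.49) and 203 kb (112990490, score 1.83) from Sox9. The lncRNA gene 2610035D17Rik (113043906 to 113201838) held 2 siID4 summits, of which that at 113087264, 299.5 kb from Sox9, had the highest score of the interval in its list (8.07, rank 357 of 1489). The other was at 113056334 (score 2.70). It also held 1 siNT summit, at 113167711 (score 1.71, rank 533 of 560), in a part that overlaps the lncRNA gene LOC115487747. None of these siID4 and siNT summits lay within 5000 bp of a summit of the other list. The siNT summit nearest to Sox9, at 113023669, lay outside annotated genes.

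Slc39a11 (gene ID 69806, 113244851 to 113650200), the longest member at 405 kb, held 8 siID4 and 2 siNT summits, the most of any member. Its strongest site was present in both lists, at 113288881 in siID4 (score 6.47, rank 474) and 52 bp away at 113288933 in siNT (score 5.63, rank 313 of 560). The latter is the highest score of the interval in the siNT list. The siID4 summits at 113527704 and 113536542 scored 5.09 and 4.46, and those at 113312289 (inside Gm51927) and 113556217 scored 3.03 and 3.35. Neighbouring summits at 113596772, 113597690 and 113603856 scored 2.37, 2.74 and 1.37, and the first pair, 918 bp apart, were the closest siID4 summits of the interval. The siNT summit at 113631994 scored 1.68. Beyond Slc39a11 the siID4 list had 1 summit inside Cog1, a gene of the Golgi tethering complex (113653925, score 2.83), 1 in D11Wsu47e (113692770, score 2.17) and 1 where D11Wsu47e and Cpsf4l overlap (113698591, score 1.56).

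Map2k6 (gene ID 26399, 110399102 to 110525522) held 1 summit of each list at different places. The siNT summit lay at 110430118 (score 5.48, rank 317 of 560), and the siID4 summit at 110520345, 90.2 kb further on (score 2.14, rank 1277 of 1489). Within 100 kb of its body there were 8 siID4 and 2 siNT summits. Before Map2k6, siID4 summits at 110360879, 110369130 and 110385650 scored 2.48, 5.32 and 4.12, and the last was 13.5 kb from the gene. Past its other end, summits lay inside the lncRNA gene Gm11682 (110539310, score 5.21) and at 110558802 (score 2.12). A group followed with siID4 summits at 110578491 and 110581064 (scores 2.96 and 2.39) and an siNT summit between them at 110580392 (score 2.29), 672 bp from the nearer one.

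Kcnj16 (gene ID 16517, 110968033 to 111027968) and Kcnj2 (gene ID 16518, 111066164 to 111076825) held no summit and had 0 within 100 kb in both lists. The nearest to Kcnj16 was a pair present in both lists, at 110768240 in siID4 (score 2.22, rank 1231) and 127 bp away at 110768367 in siNT (score 1.61, rank 539 of 560), 199.8 and 199.7 kb from the gene. The nearest siID4 summit to Kcnj2 was 182 kb away on the desert side (111258531), and the nearest siNT summit was that of the pair, 298 kb away. The stretch without siID4 summits that contains both channel genes was the widest of the interval, 490.3 kb. In the siNT list the widest stretch ran over 2.26 Mb from 110768367 to 113023669, past both channel genes, the desert and Sox9.

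**Figure D2:**
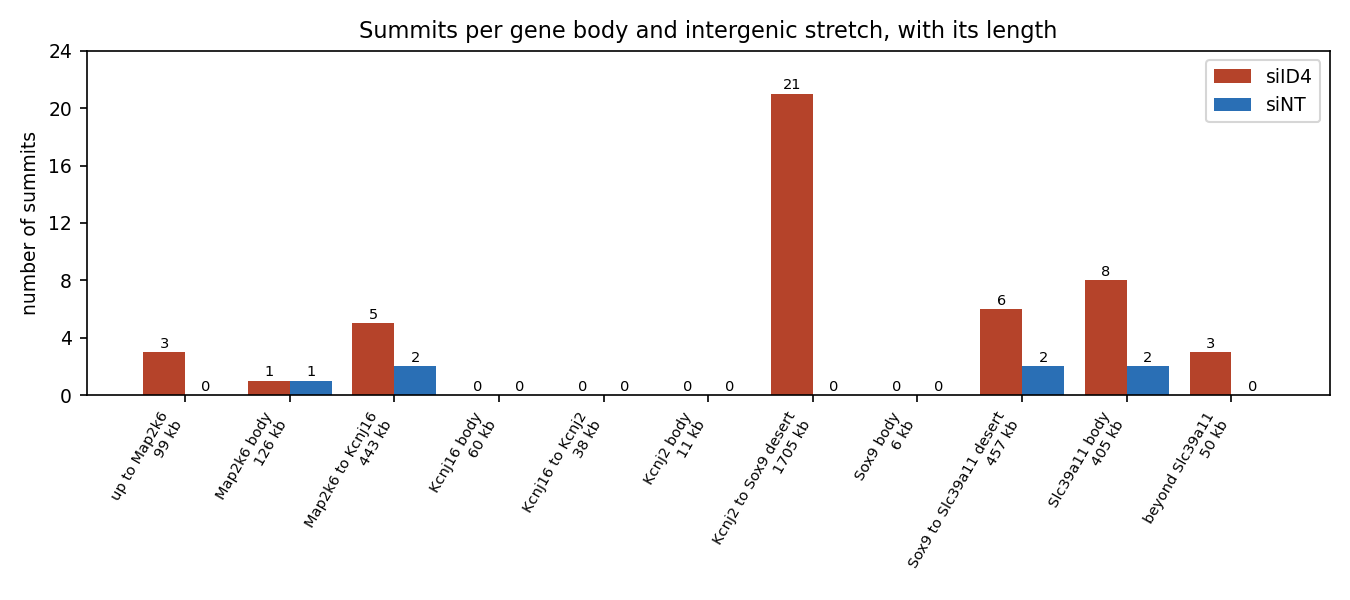
Number of summits (y axis) in each gene body and each stretch between member genes, in chromosomal order with the length of each in kb, for siID4 (red) and siNT (blue). The desert between Kcnj2 and Sox9 holds 21 siID4 and 0 siNT summits, and the bodies of Kcnj16, Kcnj2 and Sox9 hold 0 of either list. With the siID4 list cut to the length of the siNT list, the desert holds 2 siID4 and 0 siNT summits.

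By gene, 3 of the 5 members (Map2k6, Sox9 and Slc39a11) had an siID4 summit within 100 kb and 2 (Map2k6 and Slc39a11) an siNT summit. Of all 21887 protein-coding genes on assembled chromosomes, 10.1% had an siID4 and 5.16% an siNT summit within 100 kb. The members were chosen for their summits, so nothing is read from this contrast. Of the 47 siID4 summits, 12 lay inside protein-coding genes, 5 inside lncRNA genes only and 30 outside annotated genes. Of the 7 siNT summits these were 3, 1 and 3. Protein-coding bodies cover 20.6% of the interval and all annotated genes 31.1%. They held 25.5% and 36.2% of the siID4 summits, and 42.9% and 57.1% of the 7 siNT summits. There were 22 siID4 and 2 siNT summits over 100 kb from any protein-coding gene. The share of all listed summits, or of the interval's length, at that distance is not given, so nothing is read from these counts.

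The interval's summits were mostly at different places in the lists. Over all summits, 19.5% of the siID4 list and 51.8% of the siNT list had a summit of the other list within 200 bp. In the interval 2 of 47 siID4 summits (4.26%, 0.520 to 14.5%) and 2 of 7 siNT summits (28.6%, 3.67 to 71.0%) did. These were the pairs inside Slc39a11 and before Kcnj16, and neither pair lay within 50 bp. Summits elsewhere in the score range of the interval gave 6.97% of 1076 siID4 and 21.7% of 221 siNT summits, and the difference between the interval and these summits was not tested. In the rest of chromosome 11 beyond 110 Mb the shares were 3.15% of 286 siID4 and 18.0% of 50 siNT summits.

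Scores of the interval were low in both lists. The siID4 summits had scores from 1.37 to 8.07, with a median of 3.03 at percentile 32.3 of their list, and 10 of 47 were above the list's median. The siNT scores ran from 1.61 to 5.63, with a median of 2.29 at percentile 12.2, and 0 of 7 were above the list's median of 6.68. In the highest quartile of its list stood 1 siID4 summit, that in 2610035D17Rik, and 0 siNT summits. In the rest of chromosome 11 beyond 110 Mb, 37.4% of siID4 and 12% of siNT summits were above the list's median.

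In the interval the number of siID4 summits was 6.71 times that of siNT summits (3.02 to 17.6), against 2.66 times over the whole lists (2.41 to 2.94). The interval was chosen by the positions of these summits, and its difference from the whole lists was not tested. The ratio depended on which summits were counted. Above the median score of each list the interval held 10 siID4 and 0 siNT summits, against a ratio of 2.67 (2.32 to 3.07) over the lists. At a score of at least 5 there were 7 siID4 and 3 siNT summits, a ratio of 2.33 (0.533 to 14.0), against 1.85 (1.61 to 2.11) over the lists; the same score need not be equally strict in both. When the siID4 list was shortened to its 560 highest scores, the length of the siNT list, 4 of its summits lay in the interval against 7 siNT summits, a ratio of 0.571 (0.123 to 2.25). That interval covers counting error only and includes 1. The cut was chosen after the data were seen, and the direction in lists of equal length was not tested. The 4 were the 2 highest of the Kcnj2 to Sox9 desert, the one in 2610035D17Rik and the one shared in Slc39a11, and none of the 5 within 100 kb of Sox9 was among them. In the rest of chromosome 11 beyond 110 Mb, 47 of these 560 siID4 summits remained beside 50 siNT summits.

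**Figure D3:**
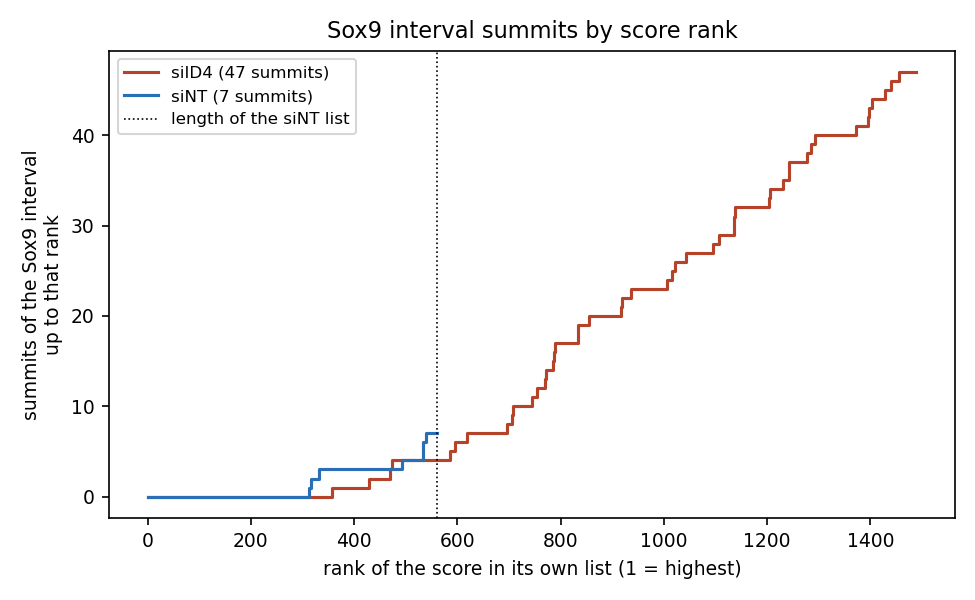
Number of summits of the Sox9 interval (y axis) met on going down each list from its highest score (x axis, rank), for siID4 (red) and siNT (blue), with a dotted line at the length of the siNT list. At that rank the siID4 curve stands at 4 and the siNT curve at 7, and most of the 47 siID4 summits come after it.

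The interval lies near the start of a crowded part of chromosome 11. Per Mb it held 13.8 siID4 and 2.06 siNT summits. The stretch of the same length before it held 4.12 and 1.18, the one after it 21.8 and 5.29, and the rest of chromosome 11 beyond 110 Mb 33.5 and 5.86. Before 110 Mb chromosome 11 held 0.364 and 0.2 per Mb, and the other assembled chromosomes 0.393 and 0.155. The siID4 to siNT ratio was 5.72 (4.22 to 7.89) in the rest of that part, beside 6.71 (3.02 to 17.6) in the interval. The difference was not tested. Windows of the interval's length were laid end to end from the start of each assembled chromosome, 789 in all. The shorter stretch left at each chromosome's end was not counted, which on chromosome 11 drops part of the crowded end. Of the 789 windows, 2 held at least 47 siID4 summits, both on chromosome 11. At least 7 siNT summits were held by 7 windows, on chromosomes 1, 5, 8, 11 and X. The chromosome 11 window with 71 siID4 summits overlaps the interval itself. Neighbouring siID4 summits of the interval were a median of 35.8 kb apart, and those beyond it 16.0 kb. The borders do not mark a break: the last siID4 summit outside stood at 110292784 (score 3.83) and the first inside at 110360879 (score 2.48), and at the other border they stood at 113698591 (score 1.56, inside) and 113722967 (score 4.24, outside). In the siNT list the summits outside the borders stood at 110263768 (score 2.61) and 113744479 (score 2.38), and the first and last inside were those in Map2k6 (score 5.48) and Slc39a11 (score 1.68).

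**Figure D4:**
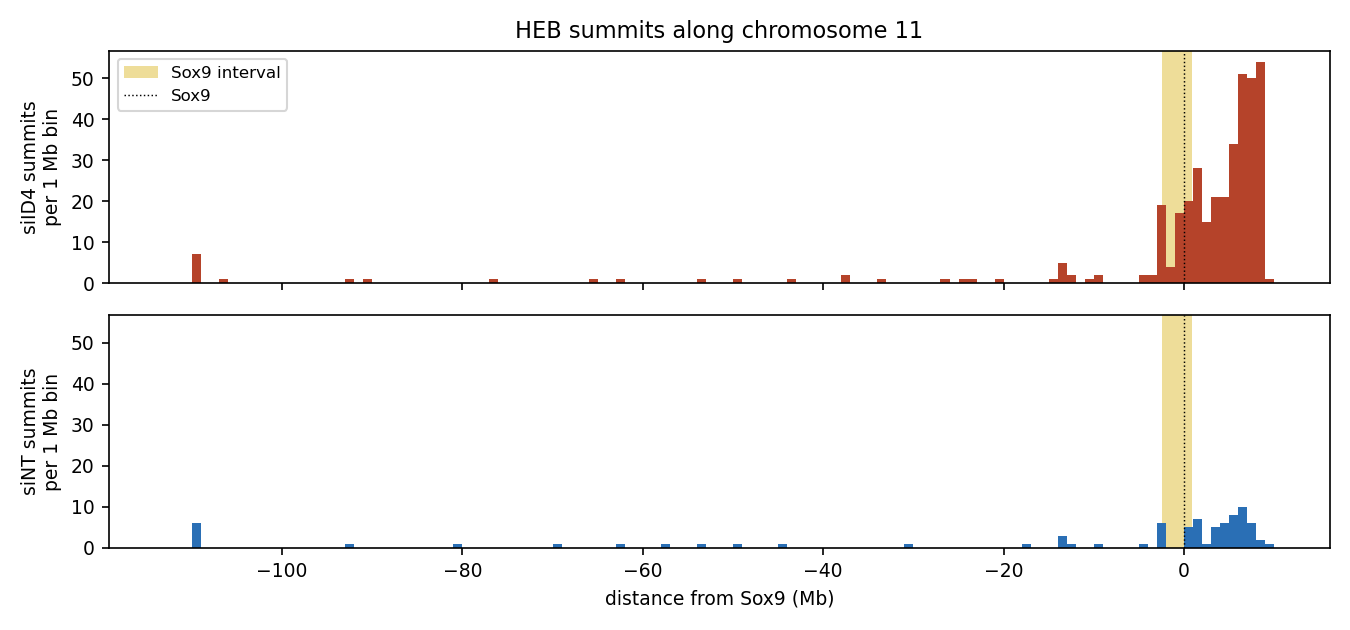
Summits per 1 Mb bin along chromosome 11 (y axis) by distance from Sox9 (x axis, Mb), for siID4 (upper panel) and siNT (lower panel), with the Sox9 interval shaded. The siID4 count rises to 19 in the bin that starts at -3 Mb, which begins before the interval's lower border. It falls to 4 in the next bin and stands at 17 in the one after. On average the interval held 13.8 siID4 summits per Mb, below the 33.5 per Mb of the rest of the part beyond 110 Mb.

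Most genes related to the members by function or family had no summit nearby, and the same held for most protein-coding genes. Of 78 related genes in 7 lists, 4 had an siID4 summit within 100 kb and 1 an siNT summit. Of all protein-coding genes, 10.1% and 5.16% had one. The lists are short, and no difference from all genes was tested. None of the 19 other Sox genes, the 12 cartilage matrix genes that Sox9 is known to activate, the 6 other MAP kinase kinases or the 13 other ZIP transporters had one in either list. Of 12 mammary stem and basal genes, Krt5, a basal keratin gene, had an siID4 summit 44.4 kb away on chromosome 15 (101662642, score 2.71, rank 1101), and 0 had an siNT summit. Of the 4 p38 kinases, the targets of the Map2k6 kinase, a single siID4 summit on chromosome 17 (28747081, score 1.60, rank 1421) lay inside Mapk14 and 22.2 kb from Mapk13, and no siNT summit was near. Of 13 other inward rectifier genes, Kcnj6, which encodes a G-protein-gated channel, had a summit of each list on chromosome 16, 46.2 kb away in siID4 (94698771, score 2.48, rank 1137) and 46.6 kb away in siNT (94698424, score 7.64, rank 257). These lay 347 bp apart, beyond the 200 bp used for sharing. With summits of a score of at least 5, 0 of the 78 genes had an siID4 summit within 100 kb and 1, Kcnj6, an siNT summit. The share of all protein-coding genes at that score is not given here, so nothing is read from these counts.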

How the data were processed

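HEB ChIP-seq summits of Comma-Dβ cells were used as the authors deposited them, in 1 list per siRNA. The score of each summit, as deposited by the authors, was read as a −log10 q value from its layout and its minimum (1.31 in siID4 and 1.32 in siNT, just above 1.30); the files do not name it. Per the submitters' processing notes, the authors worked with SAMtools on mm10. How reads were aligned, how peaks were called and how the 3 libraries of a group were combined is not given in the sources used here. Peak numbers within the interval ran without a break in both lists, while 51 and 38 numbers are absent over the whole lists. Gene bodies came from a RefSeq table of GRCm38.p6, the assembly of mm10, and starts from its promoter table. Summits within 200 bp of a summit of the other list were called shared, and genes within 100 kb of a summit were called near it. The text names the 5 members, each annotated gene of the interval that holds a summit, and genes of the 7 lists with a summit within 100 kb; genes of starts near a summit, Gm11677 and border sites were added after values were seen. Members and lists were chosen with earlier results of these data known. No test was made, since each siRNA has 1 list. Ratios carry exact conditional and shares Clopper-Pearson 95% intervals. Depth is unknown. Analyses used Python 3.11.15, pandas 2.3.3 and SciPy 1.17.1; distance and merging functions were tested on simulated positions.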

Additional observations from a re-analysis of the deposited data

How the results depend on the processing

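The count of siID4 summits in the interval fell from 47 to 10 above the list's median score, to 7 at a score of at least 5, to 14 within 500 kb of Sox9 and, in a setting chosen after seeing the data, to 4 with as many highest-scoring siID4 summits as the siNT list holds; the siNT count fell from 7 to 0, 3 and 2 in the first 3 settings. Merging summits within 500 bp left both counts as they were, and within 1 Mb of Sox9, which reaches past the interval on the Slc39a11 side, they were 37 and 5. Shared summits numbered 0 in either list within 50 bp, 3 in each within 1000 bp, and 4 siID4 and 3 siNT summits within 5000 bp. All 5 members had a summit of both lists within 500 kb. They were chosen for their summits, and the share of all protein-coding genes at that distance is not given, so nothing is read from this count. Of the related genes, 1 had an siID4 and 0 an siNT summit within 10 kb, and at a score of at least 5 the siID4 count was 0. Shares of all protein-coding genes under these settings are not given, so nothing is read from the counts. With protein-coding genes only, 12 in place of 17 siID4 and 3 in place of 4 siNT summits lay inside genes. No paired analysis was possible because the lists are not split by replicate, and for the same reason no library could be left out. Depth is unknown, so a missing siNT summit does not show that HEB is absent there.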
